A study of Mus musculus with 16 samples.

Results

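The 36 genes described here are nuclear receptors and the coregulators that they recruit, 28 receptors and 8 coregulators. They were taken by gene symbol from the FPKM tables of liver and kidney, which hold 32989 genes each (FPKM, fragments scaled by the exon length of a gene and by the library total). All 36 symbols were found, and for Ppard, the only one with a repeated row, the row with the higher mean FPKM was used. The rule names the genes by symbol and contains no threshold on a measured value, but the list was drawn up with earlier results of these data known.

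Liver and kidney RNA was sequenced from the same 8 male C57BL/6J mice, wild-type inbred animals of 97 weeks of age. This gave 4 groups of 4 libraries. In the LD condition (mice L63, L65, L86 and L104), light was on from 8:00 to 20:00 every day. In the ADV condition (mice A75, A91, A94 and A115), which models chronic jet lag, the light-dark cycle was advanced by 8 h every 4 days. Both conditions lasted for 85 weeks. The question addressed by the comparison is which transcripts in peripheral organs differ after long-term circadian misalignment. Each organ is a mixture of cell types, so that fewer cells of a type and less RNA per cell cannot be told apart. The libraries came from a pair of sequencing providers, and which library came from which was not given, so that this batch and the conditions cannot be told apart.

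Nuclear receptors are transcription factors of which many are switched by small lipophilic ligands such as fatty acids, bile acids, steroid and thyroid hormones, retinoids and xenobiotics. Many bind DNA as a heterodimer with a retinoid X receptor (RXR). Bound receptors recruit coactivators such as the p160 and PGC-1 proteins, which link them to chromatin enzymes and the Mediator complex, or corepressors such as NCoR1 and RIP140. In liver they set fatty acid oxidation (PPARα), drug metabolism (CAR and PXR) and hepatocyte identity (HNF4α), and in kidney they govern mitochondrial genes (the oestrogen-related receptors with PGC-1α) and sodium handling (the mineralocorticoid receptor).

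The fragments assigned to genes ranged from 21092500 to 24285100 per library in liver and from 15688500 to 18043300 in kidney. A gene with 1 kb of exons and 1 fragment had an FPKM between 0.038 and 0.0584. Libraries of 2 ADV mice stood apart: both of A94, with the highest sums of 8 macrophage and 8 lymphocyte markers in both organs, and the kidney library of A115, in which mitochondrial transcripts took 30.9% of the fragments against 8.63% to 16.53% in the other 7 kidneys. The libraries held the markers of the labelled organs: summed over 8 hepatocyte genes such as Alb, the liver libraries held 57283 to 69774 FPKM, and summed over 8 proximal tubule genes such as Lrp2, the kidney libraries held 18711 to 46316 FPKM. No hepatocyte marker was at 0 in all livers and no proximal tubule marker was at 0 in all kidneys, whereas the proximal tubule genes Slc34a1, Slc22a6 and Kap were at 0 in every liver and Cps1 was at 0 in every kidney.

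Nr1i3 (encoding CAR), Nr1i2 (encoding PXR) and Hnf4a, 3 receptors of the hepatocyte, had lower means in the ADV livers at an unadjusted p under 0.05, though at no adjusted p under 0.05, and the sequence upstream of their transcription starts is shown for that reason. Ppara met the same criterion but is not printed, since its RefSeq start lay 212 bases inside the gene as the tables place it, and its window held 0 matches to the motifs searched. The 250 bases before the RefSeq start are given 5′ to 3′ on the gene's strand, from GRCm38.p6, the assembly of the mm10 build that the tables use. Capitals mark matches, on either strand, to CACGTG (the E-box bound by CLOCK and BMAL1), CCAAT (the CCAAT box) or GTTAAT (a half-site of the HNF1 factors). Nr1i3 lies at chr1:171213720-171213969 (plus strand), Nr1i2 at chr16:38294825-38295074 (minus strand) and Hnf4a at chr2:163546905-163547154 (plus strand).
Nr1i3: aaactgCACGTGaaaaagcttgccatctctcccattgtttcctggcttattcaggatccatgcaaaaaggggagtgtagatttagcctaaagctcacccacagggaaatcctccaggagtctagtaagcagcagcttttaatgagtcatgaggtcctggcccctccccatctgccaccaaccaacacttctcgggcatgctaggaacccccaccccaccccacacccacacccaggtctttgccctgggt
Nr1i2: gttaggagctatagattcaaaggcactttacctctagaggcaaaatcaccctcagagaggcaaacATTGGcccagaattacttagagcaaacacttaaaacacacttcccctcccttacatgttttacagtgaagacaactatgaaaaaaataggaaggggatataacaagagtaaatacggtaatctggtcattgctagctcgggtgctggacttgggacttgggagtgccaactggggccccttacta
Hnf4a: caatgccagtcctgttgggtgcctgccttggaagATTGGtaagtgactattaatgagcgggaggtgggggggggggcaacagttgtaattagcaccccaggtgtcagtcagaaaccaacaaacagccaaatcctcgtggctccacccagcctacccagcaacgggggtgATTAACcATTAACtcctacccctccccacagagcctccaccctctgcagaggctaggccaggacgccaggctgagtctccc
The Nr1i3 window held 1 E-box, the Nr1i2 window 1 CCAAT box and the Hnf4a window 1 CCAAT box and 2 HNF1 half-sites. Over all 32851 RefSeq promoters, taken from 250 bases before to 50 after the start, CACGTG was present in 7.15%, CCAAT in 37.4% and GTTAAT in 7.1%. Among the 27 members with a RefSeq promoter whose start lay within 500 bases of the gene start in the tables, CACGTG was present in 3 (Nr1i3, Rara and Thrb), CCAAT in 11 and GTTAAT in 3 (Hnf4a, Nr5a2 and Rxrg). The half-site AGGTCA, the core of most nuclear receptor elements, was present in 3 (Nr5a2, Nr6a1 and Rarg), against 16.3% of all promoters. ANTNGGTCA, a REV-ERB element, was present in 1 (Rxrg), against 2.24% of all promoters, and TATAAA, the TATA box, in 2 (Nr5a2 and Thrb), against 13.6%. TCAAGGTCA, an oestrogen-related receptor element, and CAAAGTCCA, an HNF4 motif, were present in 0 of the members, against 0.423% and 0.475%. ANTNGGTCA and TCAAGGTCA can overlap AGGTCA. These are matches of letters and no test was made of them.

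The organs differed in which receptors were abundant. Hnf4a, an orphan receptor that maintains the hepatocyte and the proximal tubule, was the most abundant member in both organs, at 181 ± 38.9 FPKM in liver and 155 ± 36.7 in kidney (mean ± SD, n = 8 mice). In liver, with all mice pooled, it was followed by Rxra at 70.1 ± 7.42, Nr1i3 at 57.2 ± 12.5 and Ppara at 37.9 ± 11.8 FPKM. The order was the same in the LD livers alone. In kidney the order depended on the condition and on A115, so that it is given for LD alone, where Hnf4a was followed by Ncor1 at 24.7 ± 2.2, Nr2f2 at 22.9 ± 0.837, Ppara at 20.1 ± 1.65, Nr3c1 at 19.2 ± 2.44 and Rxra at 18.6 ± 1.07 FPKM (SD, n = 4). The last 3 differed by less than their spread.

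**Figure D1:**
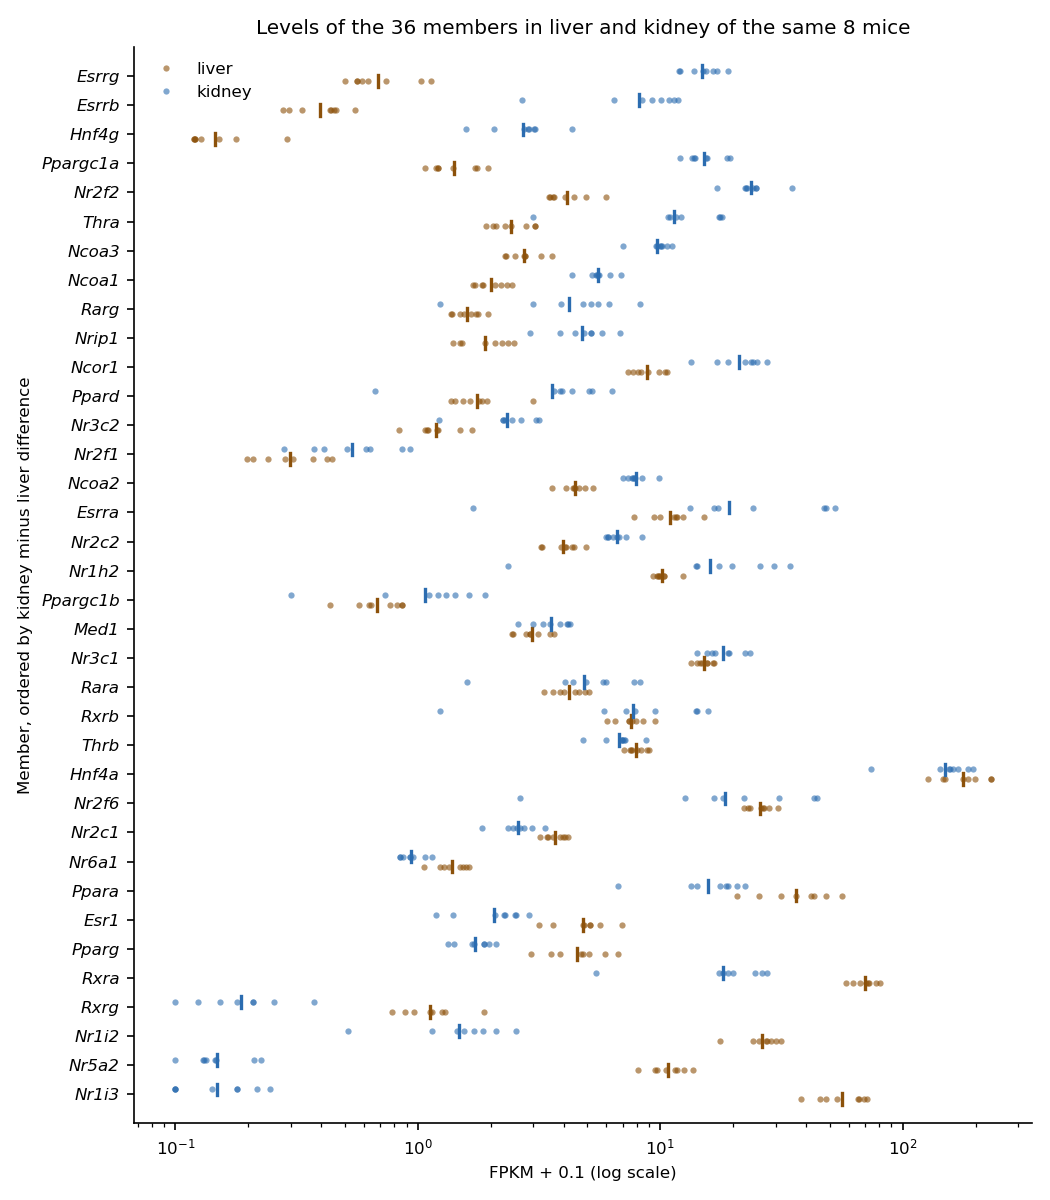
FPKM + 0.1 on a log axis (x) of each of the 36 members (y, ordered by the kidney minus liver difference) in the liver (brown) and kidney (blue) of the 8 mice. Each point is 1 mouse and the short vertical line is the geometric mean of the 8 values; Esrrg, Esrrb and Hnf4g at the top were higher in kidney and Nr1i3, Nr5a2 and Nr1i2 at the bottom were higher in liver in 8 of 8 mice.

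Toward the liver, the largest differences on the log2(FPKM + 0.1) scale were those of Nr1i3, Nr5a2, Nr1i2, Rxrg, Rxra and Pparg. Nr1i3, the constitutive androstane receptor CAR, ranged from 38 to 71.3 FPKM in liver, while the 8 kidneys together held 12 fragments of it, with 0 in L65, A94 and A115. Nr5a2, the liver receptor homologue LRH-1 that acts on bile acid synthesis genes, ranged from 8.04 to 13.5 FPKM in liver and from 0 to 0.125 in kidney. Both are liver genes in these data, with kidney values near the level of single fragments, so that their differences of −8.55 ± 0.20 and −6.18 ± 0.15 (log2(FPKM + 0.1), kidney minus liver ± SE) depend on the pseudocount of 0.1. Nr1i2, the pregnane X receptor PXR, was at 26.5 ± 4.29 FPKM in liver and 1.51 ± 0.611 in kidney (−4.15 ± 0.26). Rxrg was at 1.07 ± 0.338 in liver and 0.101 ± 0.086 in kidney (−2.60 ± 0.24). Its relative Rxra, the main RXR of liver, was at 19.7 ± 6.96 FPKM in kidney (−1.95 ± 0.27), and Pparg, the adipogenic PPAR, was at 4.6 ± 1.25 in liver and 1.64 ± 0.266 in kidney (−1.40 ± 0.17). Each of these 6 receptors was higher in the liver in 8 of 8 mice, with adjusted p by limma between 4.54e-15 (Nr1i3) and 8.77e-06 (Rxra).

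Toward the kidney, the largest differences on the log2(FPKM + 0.1) scale were those of Esrrg, Esrrb, Hnf4g, Ppargc1a, Nr2f2 and Thra. Esrrg and Esrrb, the oestrogen-related receptors γ and β, which need no hormone, were at 15 ± 2.46 and 8.78 ± 3.04 FPKM in kidney against 0.618 ± 0.237 and 0.305 ± 0.095 in liver (4.44 ± 0.18 and 4.37 ± 0.28). Hnf4g, a relative of Hnf4a, was at 2.71 ± 0.801 FPKM in kidney, with 42.5 fragments in all 8 livers together (4.21 ± 0.21). Its difference and that of Rxrg also depend on the pseudocount: the ratio of the mean FPKM was 50.8 for Hnf4g (kidney to liver), above 28.8 for Esrrb and 24.3 for Esrrg, and 10.6 for Rxrg (liver to kidney). Ppargc1a, which encodes the coactivator PGC-1α, was at 15.3 ± 2.59 FPKM in kidney and 1.34 ± 0.324 in liver (3.43 ± 0.14). Nr2f2, the orphan receptor COUP-TFII of venous endothelium and stroma, was at 4.11 ± 0.887 FPKM in liver (2.52 ± 0.14). Thra, the thyroid hormone receptor α, was at 12.6 ± 5.05 FPKM in kidney and 2.36 ± 0.454 in liver (2.23 ± 0.31). The first 5 of these were higher in the kidney in 8 of 8 mice. Thra was higher in 7 of 8, the exception being A115, and its 3′ end overlaps Nr1d1 on the other strand. The libraries were stranded, but the strand setting of the counting was not given, so that the level of Thra is uncertain.

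By limma over 14379 genes, 28 of the 36 members differed between the organs at an adjusted p under 0.05, against 74.5% of all genes tested. Of these, 17 were higher in kidney (61.5% of all genes) and 11 were higher in liver (13.1% of all genes). The median of all genes lay 0.74 higher in kidney on the log2 scale, and scaling each library by its median ratio to the others moved it to 0.01. With that scaling, 27 members were called, 11 higher in kidney (33.6% of all genes) and 16 higher in liver (31.6% of all genes). Called the same way under both scalings were 11 members higher in kidney (Ppargc1a, Rarg, Thra, Nr2f2, Esrrb, Esrrg, Hnf4g and the coregulators Ncoa1, Ncoa3, Ncor1 and Nrip1) and 11 higher in liver (Ppara, Pparg, Rxra, Rxrg, Thrb, Nr1i2, Nr1i3, Nr2c1, Nr5a2, Nr6a1 and Esr1). With the mouse as a block, Thrb lost its call (adjusted p = 0.102 by limma, against 0.0459 without it). The sign of 7 members changed with the scaling (Ppargc1b, Rxrb, Rara, Nr1h2, Nr2c2, Nr3c1 and Med1). Nr3c1, the glucocorticoid receptor, was called higher in kidney as deposited (0.26, adjusted p = 0.04) and higher in liver after scaling (−0.51, adjusted p = 0.019), so that no direction can be given for it. Its level was 15.1 ± 1.13 FPKM in liver and 18.3 ± 3.24 in kidney. Of the other coregulators, the 3 p160 coactivators Ncoa1, Ncoa2 and Ncoa3 stood at 1.92 to 4.37 FPKM in liver and 5.48 to 9.69 in kidney, Med1, the Mediator subunit that receptors bind, at 2.88 and 3.5, and the PGC-1 relative Ppargc1b at 0.599 and 1.1.

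Within LD, the spread between the 4 mice was small for most members. Among the members above 5 FPKM, the coefficient of variation had a median of 11% in liver (14 members, from 4.11% for Nr1i3 to 18.8% for Esr1) and 12.3% in kidney (20 members, from 3.65% for Nr2f2 to 25.8% for Esrra). Over all genes above 5 FPKM in LD the medians were 9.38% and 9.45%. Among the same members the median in ADV was 14.6% in liver and 26.1% in kidney, and without A115 12.9% and 7.67%.

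In the liver, Ppara, Nr1i3, Nr1i2 and Hnf4a had lower means in the ADV-conditioned mice at an unadjusted p under 0.05, and none of them passed the adjustment over all genes. Ppara, which encodes the fatty acid sensor PPARα, read 42.9, 48.1, 41.9 and 56.2 FPKM in LD (L63, L65, L86 and L104) and 31.5, 36.4, 25.5 and 20.6 FPKM in ADV (A75, A91, A94 and A115). Every ADV mouse was below every LD mouse, with A115 the lowest. The means were 47.3 ± 6.54 and 28.5 ± 6.87 FPKM (SD, n = 4), a difference of −0.75 ± 0.18 on the log2 scale (unadjusted p = 0.00195 and adjusted p = 0.296 by limma, exact permutation p = 0.0286). The gene lies at chr15:85735564-85806851 on the plus strand of mm10.

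Nr1i3, encoding CAR, read 65.3, 71.3, 69.3 and 66.2 FPKM in LD and 45.7, 48.1, 38 and 53.4 FPKM in ADV. The groups did not overlap, and the 4 LD mice had a coefficient of variation of 4.11%, the smallest of the members above 5 FPKM in liver. The difference was −0.56 ± 0.11 (unadjusted p = 0.000573 and adjusted p = 0.234 by limma, exact permutation p = 0.0286). The gene lies at chr1:171213970-171218845 on the plus strand.

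Nr1i2, encoding PXR, the receptor that shares many target genes with CAR, read 27.5, 31.4, 30 and 28.5 FPKM in LD and 24, 27.3, 17.6 and 25.5 FPKM in ADV. The groups did not overlap, but A91 at 27.3 lay next to L63 at 27.5, and A94 was the lowest. The difference was −0.33 ± 0.14 (unadjusted p = 0.038 and adjusted p = 0.404 by limma, exact permutation p = 0.0286). The gene lies at chr16:38248349-38294824 on the minus strand.

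Hnf4a read 178, 186, 232 and 231 FPKM in LD and 149, 146, 127 and 199 FPKM in ADV. Here A115 lay among the LD mice and the other 3 ADV mice below them. The difference was −0.42 ± 0.16 (unadjusted p = 0.0227 and adjusted p = 0.378 by limma, exact permutation p = 0.0857).

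Rxrg, the least abundant RXR, was the only member at an unadjusted p under 0.05 with a positive difference, and it is a low one. It read 0.867, 1.04, 0.681 and 0.789 FPKM in LD and 1.03, 1.19, 1.16 and 1.78 FPKM in ADV, each from 38 to 87.5 fragments. The groups overlapped at L65 and A75, and A115 was the highest. The difference was 0.54 ± 0.20 (unadjusted p = 0.0256 and adjusted p = 0.384 by limma, exact permutation p = 0.0571). It was 0.27 with quantile normalization, 0.30 with a pseudocount of 1, 0.29 without A115 after median ratio scaling and 0.25 without A115 with the GC content correction.

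**Figure D2:**
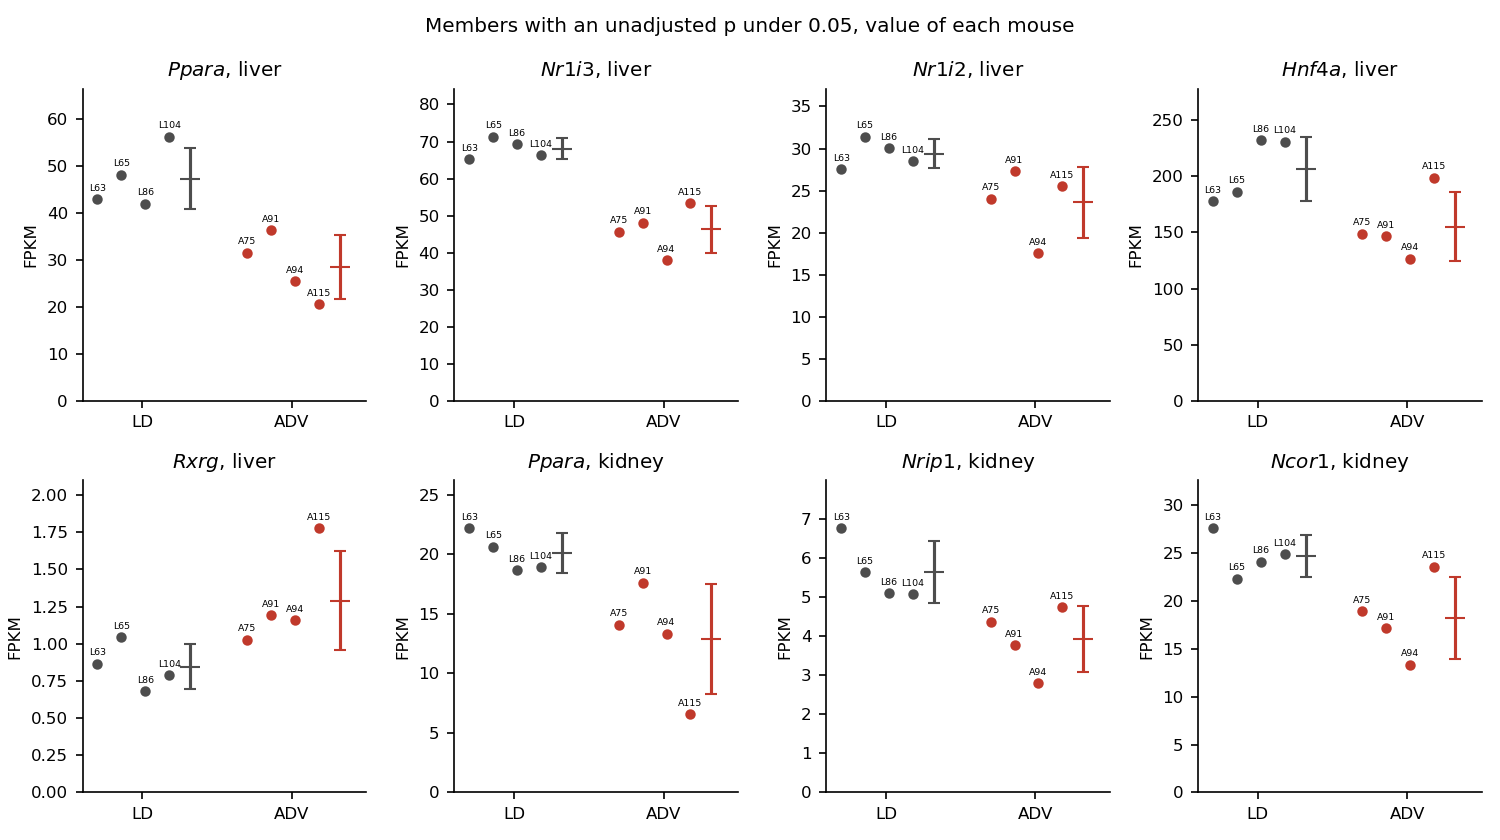
FPKM (y, from 0) of each mouse, labelled by its name, in LD (grey) and ADV (red) for the 5 liver and 3 kidney members with an unadjusted p under 0.05; the bar beside the points is the mean ± SD of 4 mice. Ppara, Nr1i3 and Nr1i2 in liver and Ppara and Nrip1 in kidney show no overlap between LD and ADV, and the mean of Ppara in liver was 47.3 FPKM in LD and 28.5 in ADV.

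Of the 35 members tested in liver (all but Hnf4g), 0 had an adjusted p under 0.05 by limma, where 1 of 12835 genes (0.00779%) did. At an unadjusted p under 0.05 stood 5 members, against 11.8% of all genes, 4 of them lower in ADV (3.13% of all genes) and 1 higher (8.65%). With scaling by the median ratio, 7 members were at an unadjusted p under 0.05 and all 7 were lower in ADV (7.29% of all genes were lower and 6.19% higher), Rxra, Rxrb and Rara among them and Rxrg not. Every ADV mouse lay below every LD mouse for 3 members, against 1.89% of all genes, and 0 members had every ADV mouse above, against 6.94% of all genes. The exact permutation test is two-sided over the 70 assignments of the 8 mice, and p = 0.0286, found for Ppara, Nr1i3 and Nr1i2, is the smallest it can give. The median difference was −0.05 over the members and 0.10 over all genes tested.

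The other 30 members tested in liver lay between −0.40 ± 0.20 (Esr1, the oestrogen receptor α) and 0.43 ± 0.20 (Ppard, the broadly expressed PPARδ). Pparg read 4.6, 5.01, 4.69 and 3.44 FPKM in LD and 3.77, 6.6, 5.83 and 2.83 in ADV (0.04 ± 0.26). Nr3c1 was among the steadiest, with 14.1, 15.5, 15.5 and 14.8 FPKM in LD and 14.5, 16.6, 13.3 and 16.4 in ADV (0.02 ± 0.10). Rxra, the partner of PPARα, CAR and PXR, read 66.9 to 80.6 FPKM in LD and 58.2 to 72.9 in ADV (−0.17 ± 0.11, adjusted p = 0.506 by limma). Ppargc1a read 1.12, 0.972, 1.62 and 1.11 FPKM in LD and 1.09, 1.85, 1.65 and 1.3 in ADV (0.27 ± 0.21). The p160 coactivators lay between −0.01 and 0.02, and the corepressors Ncor1 and Nrip1 at −0.15 ± 0.14 and 0.11 ± 0.23.

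Other markers moved with the condition in liver. The summed level of 8 macrophage genes was 132 to 178 FPKM in LD and 181 to 659 in ADV, and that of 8 fibroblast and stellate cell genes 119 to 137 in LD and 165 to 362 in ADV, both without overlap. The 8 lymphocyte genes summed to 2.33 to 3.41 FPKM in LD and 3.43 to 68 in ADV, also without overlap. The gap was narrow for the lymphocyte sum (L65 at 3.41, A115 at 3.43) and the macrophage sum (L86 at 178, A91 at 181). The highest values, 68 and 659, were those of A94. The 8 endothelial genes summed to 34.1 to 41.7 in LD and 36.3 to 60.1 in ADV and the 5 adipocyte genes to 1.63 to 5.49 and 2.32 to 8.77, both with overlap. The 5 cholangiocyte genes summed to 20 to 27.8 in LD and 26.7 to 247 in ADV and the 5 smooth muscle genes to 3.77 to 5.23 and 4.86 to 29.1, both with overlap. Of the macrophage genes 8 of 8 and of the fibroblast and stellate cell genes 8 of 8 had a positive difference, where 34.3% of all genes had a negative one. The 8 hepatocyte genes, with none at 0, summed to 57283 to 69774 FPKM in LD and 57838 to 68487 in ADV. The part of these cell type markers in the member differences was not tested. Without A94, which held the highest macrophage sum, Ppara, Nr1i3 and Hnf4a stayed at an unadjusted p under 0.05, and Nr1i2 did not (a difference of −0.20).

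In the kidney, Ppara lay lower in the ADV-conditioned mice as well. It read 22.2, 20.6, 18.7 and 18.9 FPKM in LD and 14.1, 17.6, 13.3 and 6.57 FPKM in ADV. Every ADV mouse was below every LD mouse, and the ADV mice stood in the same order as in liver, from A91 at the top through A75 and A94 to A115. The means were 20.1 ± 1.65 and 12.9 ± 4.62 FPKM, a difference of −0.72 ± 0.29 (unadjusted p = 0.0375 and adjusted p = 1 by limma, exact permutation p = 0.0286).

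Lower values were also found for both corepressors among the members. Nrip1, which encodes the corepressor RIP140 of energy metabolism genes, read 6.76, 5.64, 5.1 and 5.07 FPKM in LD and 4.36, 3.77, 2.79 and 4.74 FPKM in ADV, without overlap (−0.53 ± 0.21, unadjusted p = 0.0351 and adjusted p = 1 by limma, exact permutation p = 0.0286). Ncor1, the nuclear receptor corepressor 1, read 27.6, 22.3, 24.1 and 24.9 FPKM in LD and 18.9, 17.1, 13.3 and 23.6 in ADV. For Ncor1 only A115 reached into the LD range (−0.46 ± 0.19, unadjusted p = 0.0408 and adjusted p = 1 by limma, exact permutation p = 0.0571).

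Of the 33 members tested in kidney (Rxrg, Nr1i3 and Nr5a2 were too low), 0 had an adjusted p under 0.05 by limma, as had 0 of 14452 genes (0%). At an unadjusted p under 0.05 stood 3 members, against 3.1% of all genes, and all 3 were lower in ADV, against 1.35%. Every ADV mouse lay below every LD mouse for 2 members, against 1.83% of all genes. The other 30 lay between −0.47 ± 0.27 (Hnf4g) and 0.53 ± 0.39 (Nr2f1, an orphan receptor present at 0.18 to 0.83 FPKM). Ppargc1a read 18.8, 15.6, 15.3 and 13.8 FPKM in LD and 13.5, 13.7, 12 and 19.3 in ADV (−0.13 ± 0.19), Nr3c1 22.2, 19.2, 19 and 16.2 against 14.1, 16.7, 15.5 and 23.3 (−0.16 ± 0.19), and Hnf4a 162, 169, 143 and 195 against 155, 186, 157 and 74.3 (−0.29 ± 0.29). Nr3c2, the mineralocorticoid receptor that sets sodium reabsorption in the collecting duct, was at 2.64 ± 0.438 FPKM in LD and 2 ± 0.613 in ADV (−0.43 ± 0.28, exact permutation p = 0.143). Without A115 the differences of Ppargc1a, Nr3c1, Hnf4a and Nr3c2 were −0.27, −0.30, −0.005 and −0.19. The 8 proximal tubule genes, with none at 0, summed to 27653 to 40694 FPKM in LD and 18711 to 46316 in ADV, lowest in A75 and highest in A115. A negative difference was found for 8 of 8, as for 53.6% of all genes. The 8 macrophage genes summed to 35.6 to 89.8 FPKM in LD and 27.2 to 316 in ADV, highest in A94, with Clec4f at 0. The 8 fibroblast and stellate cell genes summed to 48 to 82.5 FPKM in LD and to 143, 57.9, 173 and 131 in A75, A91, A94 and A115. The 5 genes of the cholangiocyte list summed to 687 to 2793 in LD and 664 to 8235 in ADV, with overlap. Their part in the kidney values was not tested.

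**Figure D3:**
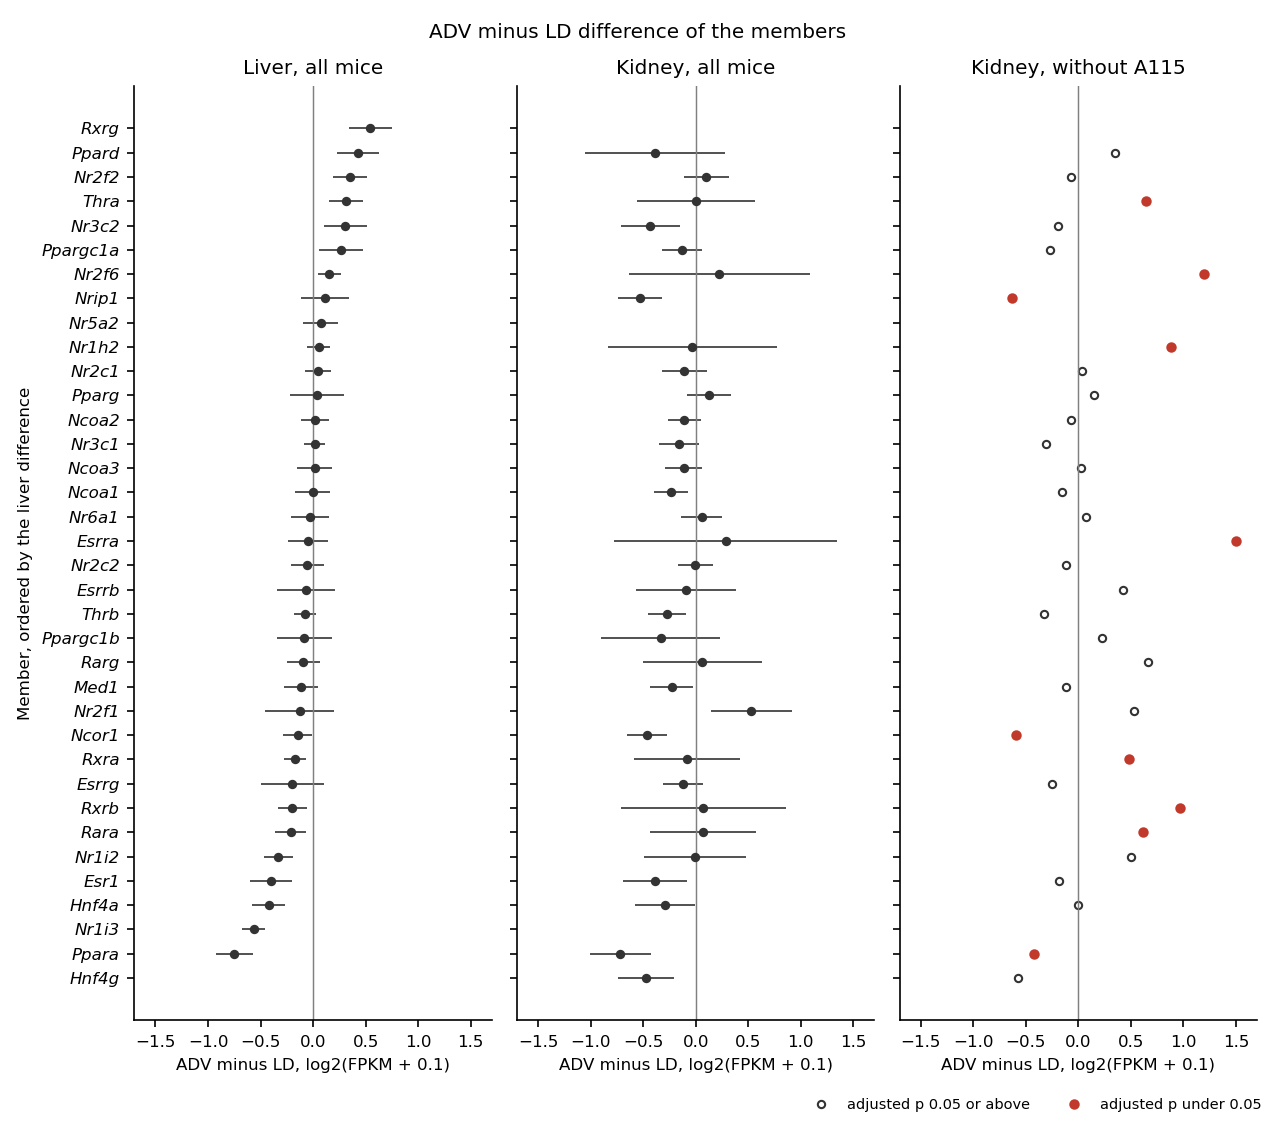
ADV minus LD on the log2(FPKM + 0.1) scale (x) for the members (y, ordered by the liver difference) in liver, in kidney and in kidney without mouse A115. Bars in the first panels are the SE of the limma fit, red points in the last panel have an adjusted p under 0.05 (10 members), and members that were not tested have no point; Ppara lay at −0.75 in liver and −0.72 in kidney.

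In kidney, several receptors stood far apart in A115. Esrra, the oestrogen-related receptor α that drives mitochondrial genes with PGC-1α, read 13.2, 16.6, 17.2 and 24.1 FPKM in LD, 47.2, 48.4 and 52.4 in A75, A91 and A94, and 1.59 in A115. Nr2f6, an orphan receptor of the COUP family, read 12.5, 16.5, 18.1 and 22.1 in LD, 30.9, 44.4 and 43.2 in A75, A91 and A94, and 2.55 in A115. Nr1h2, the oxysterol receptor LXRβ, read 13.9, 14, 17.4 and 19.6 in LD, 34.3, 25.8 and 29.5 in those 3 mice, and 2.27 in A115. In each of them 3 ADV mice lay above all LD mice and A115 below all of them. The same pattern was present in Rxrb, Rxra and Thra, of which A115 held 1.14, 5.32 and 2.9 FPKM, whereas in the liver of A115 Esrra read 11.6 and Nr1h2 9.6 FPKM, within the range of the other ADV livers or next to it. All genes tested in kidney with a transcript GC content above 56% went the same way by their median. Its deviation from the LD median was 0.75, 0.45 and 0.70 in A75, A91 and A94, and −1.82 in A115 (log2 scale).

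Without A115, 10 members had an adjusted p under 0.05 by limma in kidney, against 18.8% of all genes. Of these, 7 were higher in ADV (16.1% of all genes): Esrra (1.5, adjusted p = 0.0107), Nr2f6 (1.19, 0.0128), Rxrb (0.96, 0.0125), Nr1h2 (0.88, 0.0132), Thra (0.64, 0.0109), Rara (0.62, 0.0382) and Rxra (0.48, 0.0136). The other 3 were lower (2.68% of all genes): Nrip1 (−0.63, 0.0421), Ncor1 (−0.60, 0.0225) and Ppara (−0.43, 0.0425). These 10 were chosen after their values were seen. With scaling by the median ratio 9 members were called without A115, against 16% of all genes, 5 of them higher (8.06% of all genes) and 4 lower (7.9%). Rxra (adjusted p = 0.101 by limma) and Rara (0.0661) then lost their calls, and Nr3c1 was called lower (−0.50, 0.0472). The difference of Rxra stayed above 0 at 0.29, and the median of all genes moved from 0.20 to 0.01 with that scaling. Ppara, Nrip1 and Ncor1 had negative differences with and without A115. Of the 7 that were higher without A115, with all mice Esrra (0.28), Nr2f6 (0.22), Rxrb (0.07), Rara (0.07) and Thra (0.00) had differences of 0 or above and Rxra (−0.08) and Nr1h2 (−0.03) below 0, each smaller than its SE.

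The direction of the kidney values went with the base composition of the transcripts. Transcript GC content ran from 41.5% (Hnf4g) to 67.3% (Nr2f6) over the members. The 7 members that were higher without A115 were all at 57% or more (Rxra 57%, Thra 59.8%, Rara 60.3%, Nr1h2 60.6%, Rxrb 61.4%, Esrra 61.8% and Nr2f6 67.3%). The 3 that were lower were at 47.8% (Ncor1), 51.2% (Nrip1) and 51.5% (Ppara). Across the 33 members, the deviation of a kidney from the LD median correlated with GC content with a Pearson r of 0.80, 0.70, 0.66 and −0.91 in the ADV mice A75, A91, A94 and A115, against −0.59, −0.23, 0.05 and 0.64 in L63, L65, L86 and L104. Over the 13910 tested genes with a GC value, r was 0.56, 0.57, 0.36 and −0.68 in the ADV kidneys and −0.32 to 0.25 in the LD kidneys. These are descriptions across genes of 1 library, which share its depth and composition. In liver, r across all genes lay between −0.24 and 0.14.

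**Figure D4:**
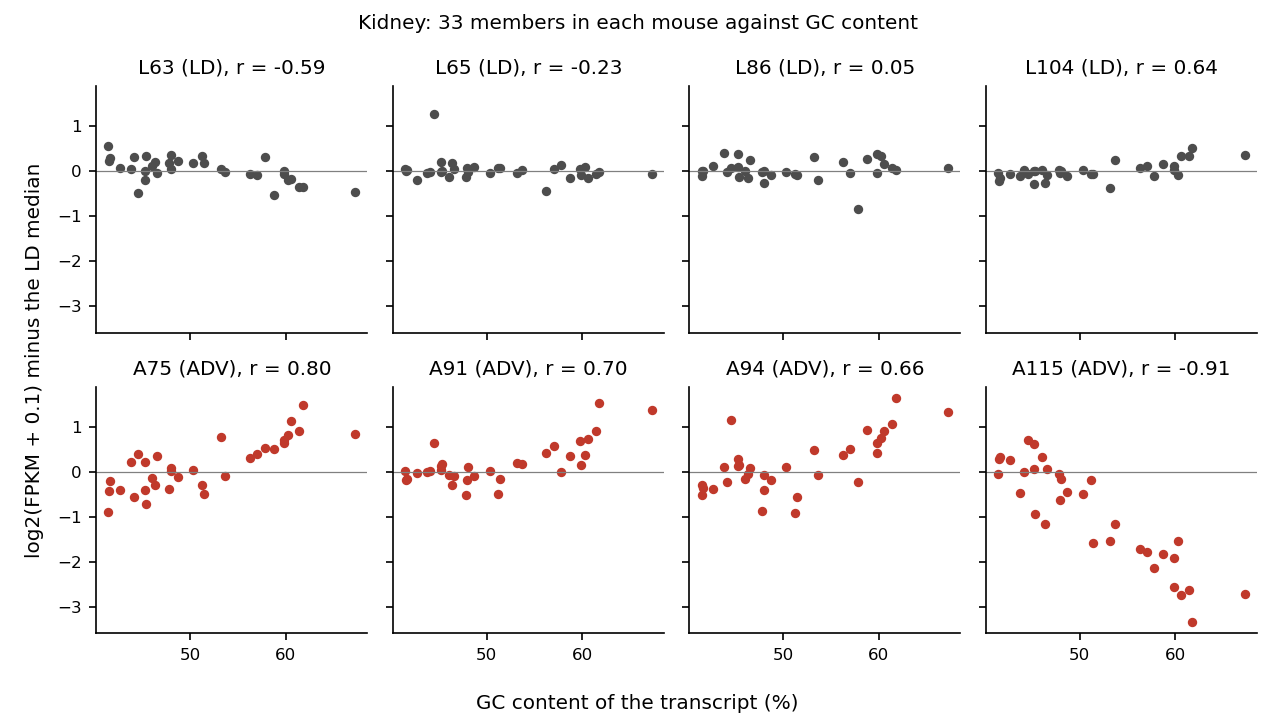
Deviation of each kidney library from the LD median, on the log2(FPKM + 0.1) scale (y), against the GC content of the transcript in percent (x) for the 33 members tested, 1 panel per mouse, LD in the top row and ADV in the bottom row. The 11 members with a GC content above 56% lay above 0 in A75, A91 and A94, except Ppargc1b in A91 and A94, and below 0 in A115 (r = −0.91 over the 33 members).

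When each library was corrected for GC content, which was chosen after seeing the data, 0 members and 0% of all genes had an adjusted p under 0.05 in kidney without A115. At an unadjusted p under 0.05 stood 5 members, against 18.6% of all genes: Ppara (−0.69), Ncor1 (−0.69), Nrip1 (−0.88), Ppard (−0.38) and Esrra (0.69). Of the 7 members that were higher without the correction, Rxra, Thra and Rara then had differences of −0.11, −0.09 and −0.13, and Nr2f6, Rxrb and Nr1h2 of 0.20, 0.17 and 0.12. With all 8 mice and the correction, Ppara (−0.74) and Ppard (−0.43) were at an unadjusted p under 0.05, against 7.62% of all genes. In liver the correction left Ppara at −0.89, Nr1i3 at −0.70 and Hnf4a at −0.56, whereas Nr1i2 (−0.47) and Rxrg (0.41) were no longer at an unadjusted p under 0.05.

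The ADV effect was compared between the organs in 1 fit over 14379 genes. For 0 members was the adjusted p under 0.05 by limma, as for 0% of all genes, and 0 members were at an unadjusted p under 0.05, against 3.73% of all genes. The smallest p belonged to Nr3c2 (kidney minus liver −0.74 ± 0.34, adjusted p = 1 by limma), which had a positive difference in liver and a negative one in kidney, and −0.44 without A115. For Ppara the effect differed between the organs by 0.03 ± 0.35. Without A115, 5 members were called (Esrra, Nr2f6, Rxrb, Nr1h2 and Rxra), against 2.88% of all genes, all with a higher ADV effect in kidney and all among the GC-rich members described above.

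The target genes of the receptors were read beside them. Of 28 targets of PPARα, genes of fatty acid transport and oxidation, 10 were lower in the ADV livers at an unadjusted p under 0.05 (3.13% of all genes) and 0 were higher (8.65%), and 0 had an adjusted p under 0.05 by limma. Their median difference was −0.27 against 0.10 over all genes, and 24 of 28 were negative, as were 34.3% of all genes. Cpt1a, the carnitine palmitoyltransferase that admits fatty acids to the mitochondrion, read 102, 89.4, 81.7 and 99 FPKM in LD and 52.6, 66.8, 59.5 and 55.1 in ADV, without overlap (−0.67 ± 0.11, adjusted p = 0.21 by limma). Acot3, a peroxisomal thioesterase, read 14.5, 12.1, 19.4 and 13.2 in LD and 4.71, 13.1, 7.16 and 6.28 in ADV (−0.99 ± 0.28), and it has near-identical neighbours among which reads may be split. Angptl4, a secreted inhibitor of lipoprotein lipase, read 66.2, 53.4, 96.4 and 95.2 in LD and 53.2, 44, 26.6 and 48.9 in ADV, with A75 just under L65 (−0.85 ± 0.25). Without A94, 6 of the targets were lower and 1 was higher at an unadjusted p under 0.05, against 5.66% and 8.8% of all genes.

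In kidney, 4 of the 26 PPARα targets tested were lower at an unadjusted p under 0.05 (1.35% of all genes) and 0 were higher (1.75%). The median was −0.46 against −0.02 over all genes, and 24 of 26 were negative, as were 53.6% of all genes. Ehhadh, the bifunctional enzyme of peroxisomal oxidation, read 216, 179, 177 and 228 FPKM in LD and 102, 170, 123 and 114.9 in ADV, without overlap (−0.67 ± 0.19). Cyp4a10, a fatty acid hydroxylase with close paralogues, had a difference of −0.46 ± 0.18. For both genes the adjusted p by limma was 1. Without A115, 8 targets were lower at an unadjusted p under 0.05 (7.58% of all genes), 4 of them at an adjusted p under 0.05 by limma (2.68%), and 19 of 26 were negative. With the GC content correction as well, 15 targets were lower at an unadjusted p under 0.05 (12.3% of all genes), and 0 of the targets and 0% of all genes had an adjusted p under 0.05.

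**Figure D5:**
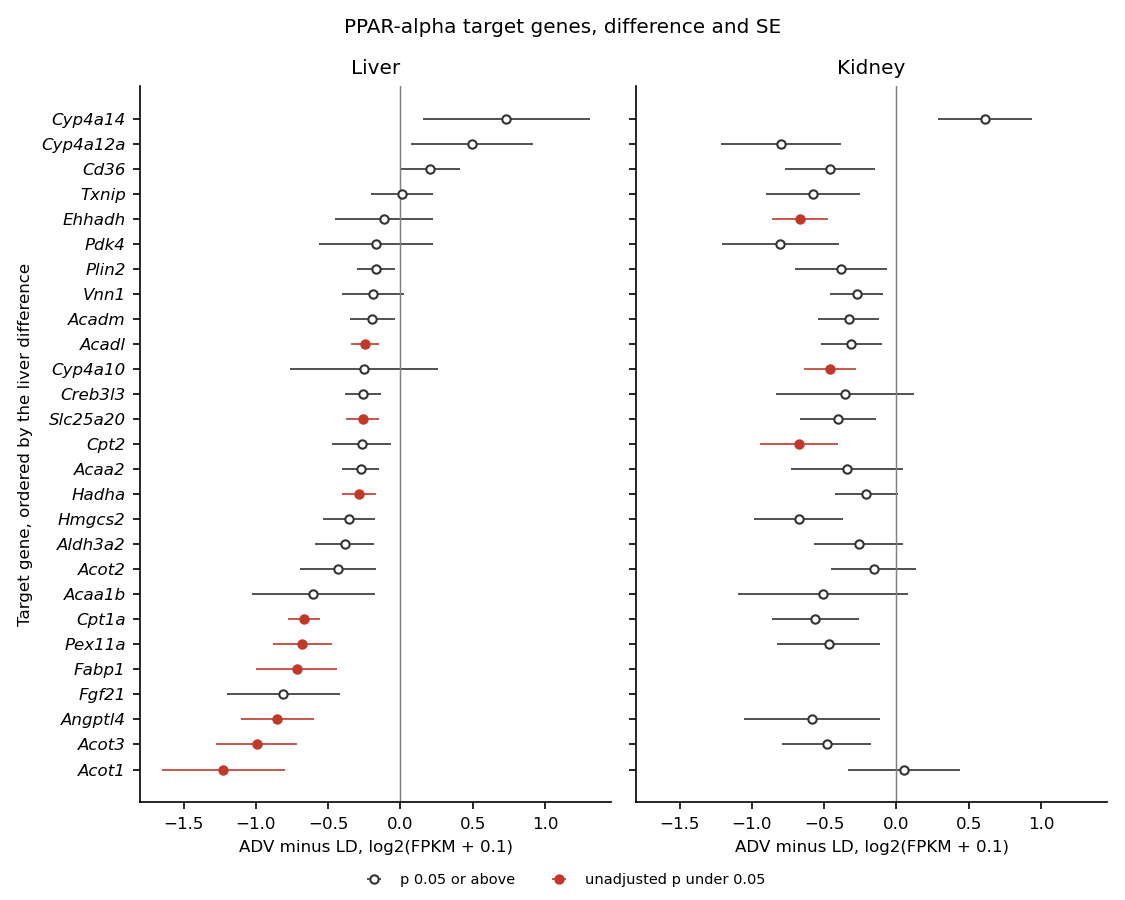
ADV minus LD difference on the log2(FPKM + 0.1) scale (x) with its SE for 27 of the 28 targets of PPARα (y, ordered by the liver value) in liver and kidney. Red points have an unadjusted p under 0.05 by limma, 9 in liver and 3 in kidney, all of them lower in ADV; 23 of the 27 liver and 23 of the 25 kidney differences plotted were below 0.

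The targets of the other receptors were read in the same way, against 3.13% of all genes lower and 8.65% higher in liver and 1.35% lower and 1.75% higher in kidney at an unadjusted p under 0.05. Of 20 targets of PXR and CAR tested in liver, 2 were higher and 1 was lower at an unadjusted p under 0.05, with a median of 0.02. The lower one was Por, the cytochrome P450 reductase, at 200, 184, 258 and 226 FPKM in LD and 91.6, 151, 105 and 105 in ADV, without overlap (−0.95 ± 0.17, adjusted p = 0.21 by limma), and the higher ones were Cyp2c55 (0.77 ± 0.25) and Gstm1 (0.60 ± 0.22). Of 20 HNF4 targets, 2 were higher, with Apoa4 at 1.31 ± 0.29, and 3 were lower, among them Pck1, the gluconeogenic carboxykinase (−0.61 ± 0.17), and Cyp8b1 (−1.45 ± 0.54). Pck1 was lower in kidney as well (−0.75 ± 0.24), without overlap in either organ. Of 20 targets of PGC-1 and the oestrogen-related receptors, 4 were lower in liver and 0 in kidney, with Vegfa first (−0.40 ± 0.11). Of 15 LXR targets in liver 2 were higher (Smpdl3a at 0.26 ± 0.09 and Mylip at 0.40 ± 0.16) and 0 lower, of 11 PPARγ targets 2 were higher (Lpl at 1.19 ± 0.41 and Fabp4 at 1.17 ± 0.45) and 1 was lower (Acsl1 at −0.91 ± 0.35), and of 11 PPARγ targets in kidney 1 was lower, also Lpl (−0.66 ± 0.16). Of 8 retinoic acid targets in liver 0 were at an unadjusted p under 0.05. Of 12 aldosterone targets in kidney 0 were at an unadjusted p under 0.05. With all mice, A115 among them, 12 of 12 had a negative difference, as had 53.6% of all genes, with a median of −0.15 against −0.02. Of 12 thyroid hormone targets 1 was lower in liver and 2 in kidney, Pck1 in both and Gpd2 (−0.52 ± 0.18). With all mice, the adjusted p by limma was 0.05 or more for every target tested in liver and in kidney.

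The other nuclear receptors and coregulators were read as a frame for the members, against the same shares of all genes. Of 21 other receptors 14 were tested in kidney, and 0 were at an unadjusted p under 0.05. Nr1d1, the clock repressor REV-ERBα that overlaps Thra, was at 9.2, 5.25, 6.2 and 5.73 FPKM in LD livers and at 2.2, 8.78, 6.22 and 1.4 in ADV livers, with A75 and A115 below and A91 and A94 within the LD range (−0.81 ± 0.51, exact permutation p = 0.343). Of 38 other coregulators 1 was higher (Fhl2, 1.25 ± 0.52) and 1 lower (Lpin1, −0.80 ± 0.33) in liver, and in kidney 2 were lower (Ncoa4, −0.40 ± 0.14, and Lcor, −0.92 ± 0.33). Of 11 core clock genes, of which 10 were tested in liver, 2 were lower in liver (Per2, −0.56 ± 0.19, and Cry2, −0.37 ± 0.14) and 2 in kidney (Cry1, −0.64 ± 0.22, and Per2, −0.76 ± 0.28) at an unadjusted p under 0.05, and 0 had an adjusted p under 0.05 by limma. The mice were sampled in a fixed window after the last light-on, so that a shifted phase and a changed level cannot be told apart.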

How the data were processed

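Poly(A) RNA of the liver and kidney of 8 mice was sequenced from stranded libraries. The authors aligned read pairs with STAR 2.5.4b to mm10, removed alignments of low mapping quality and quantified exons of UCSC known genes with HOMER, and they deposited 1 FPKM table per organ (headed RPKM). Whether the counting used strand was not given. Every deposited FPKM was a multiple of 0.5 fragments within 0.02 once multiplied by exon length and library total, which gave the fragments behind each value. Values below 1 fragment per gene limit the low members, and fragments cover counting error only.

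Values were taken as log2(FPKM + 0.1). Genes with a mean above 0.5 RPM in exons were tested with limma 3.58.1 (R 4.3.3, trended variance prior) and p-values adjusted over all genes by Benjamini-Hochberg. ADV was compared with LD within each organ, kidney with liver and the ADV effects between organs in 1 fit of 4 group means. Single members were also tested by a two-sided exact permutation test. Scripts were tested on simulated data. The GC content of 36 of 36 members came from the GENCODE transcript nearest in length. Liver and kidney were matched by mouse, as the labels name the same mice, but the main fit held no mouse block. Over all tested genes, the deviations of a mouse in liver and in kidney from its group means correlated between −0.01 (A75) and 0.51 (A94). Over the members they correlated between −0.32 (A91) and 0.42 (A94). The members and gene lists were chosen with earlier results of these data known. The genes named are members with an unadjusted p under 0.05 or without overlap between groups, the 6 members with the largest difference toward each organ, 7 well-known members, and up to 3 genes with the smallest p of each other list; the values of kidney members without A115 were added after they were seen. The values of some genes of these lists are not reported here, though the counts over the lists include them.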

Additional observations from a re-analysis of the deposited data

Results flagged for a closer look

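Within each group of 4 mice, 136 member-by-group sets were examined for 1 mouse far from the other 3, by the gap to the nearest value as a share of the group's range (Dixon's limit at the 95% level). Chance flags about 1 in 20 such sets, and 10 were flagged. Of these, 5 were the kidney of A115 below the other ADV kidneys: Rxra at 5.32 FPKM, Rxrb at 1.14, Thra at 2.9, Esrra at 1.59 and Esrrb at 2.6. All 5 have a transcript GC content above 56%, and the part of base composition in these values was not tested beyond the correction given with the kidney results. The other 5 came from 4 mice. In liver they were Nr1h2 in A94, the highest ADV value at 12.3 FPKM, Esrrb in L65, the lowest LD value at 0.194, and Esrrg in A91, the highest ADV value at 0.933. In kidney they were Thrb and Ncoa2 in L63, the highest LD values at 8.67 and 9.82 FPKM. For no member did the ADV effect differ between the organs at an adjusted p under 0.05 by limma with all mice, where 0 members were at an unadjusted p under 0.05. That unadjusted count became 2 with a pseudocount of 0.5 (3.67% of all genes) and 3 with a pseudocount of 1 (3.63%). It was 3 without A94 (3.63%) and 11 without A115 (21.8%), and it stayed at 0 with quantile normalization (2.69%) and with the replicate block (3.46%).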

How the results depend on the processing

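The number of members called in liver (0) and between the organs (24 to 34, against 28) stayed within 1.5 times under every alternative run. The share of all genes called between the organs ran from 58.7% with no filter on low values to 87.4% without A94 and A115. It was 63.6% where 24 members were called and 85.6% where 34 were. The 8 named member differences kept their sign in all 184 repeats. In liver they ranged from −0.89 to −0.47 (Ppara), −0.78 to −0.47 (Nr1i3), −0.69 to −0.33 (Hnf4a), −0.52 to −0.19 (Nr1i2) and 0.25 to 0.64 (Rxrg). In kidney the ranges were −0.90 to −0.35 (Ppara), −0.88 to −0.33 (Nrip1) and −0.79 to −0.27 (Ncor1). In liver, Ppara kept an unadjusted p under 0.05 in 23 of 23 alternatives, Nr1i3 in 22, Hnf4a in 20, Rxrg in 13 and Nr1i2 in 11, and in kidney Ppara did in 18, Nrip1 in 13 and Ncor1 in 10. In kidney, 9 members were called without A115 after median ratio scaling (16% of all genes) and 5 without A94 and A115 (4.7%); leaving out 1 mouse gave 0 to 10, the 10 without A115. For the ADV effect between organs the counts were 6 (3.22% of all genes), 5 (5.25%) and 0 to 5 in the same order, the last 5 without A115. With the mouse as a replicate block (paired by mouse), 27 members differed between the organs (75.7% of all genes) and 0 in the ADV effect (0% of all genes). The replicate block changed no other count by over 1.5 times, and only the call of Thrb was lost.

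At an unadjusted p under 0.05, the liver count of 5 became 1 with both organs in 1 fit, 9 without A94 after median ratio scaling and 8 with GC content correction. Leaving out 1 mouse gave 2 to 7, with 2 without L86 and 2 without L104. The kidney count of 3 became 1 with median ratio scaling, 1 with quantile normalization, 1 with totals without mitochondrial genes, 1 without A94 after median ratio scaling, 18 without A115 after median ratio scaling, 11 without A94 and A115, and 5 without A115 with GC content correction. Leaving out 1 mouse gave 0 to 15: 15 without A115, 0 without L63, L104 or A94, and 1 without L65, L86 or A91. The share of all genes at that p moved as well, from 11.8% in liver to 6.78%, 15.7% and 14.7% in the first 3 settings, and in kidney from 3.1% to 37.1% without A115, 36.1% with median ratio scaling as well, 29.3% without A94 and A115 and 18.6% without A115 with the correction. Leaving out 1 mouse moved that share too. In liver it was 8.78% without L86 and 7.75% without L104. In kidney it was 1.2% without L63, 1.4% without L104, 1.71% without A94, 1.37% without L65, 3.1% without L86 and 5.98% without A91. With median ratio scaling it was 3.08% in kidney, with quantile normalization 2.99% and with totals without mitochondrial genes 3.11%. Without A94 after median ratio scaling it was 1.76%. The cause of these changes was not tested. The kidney call of Ppara, Nrip1 or Ncor1 at an adjusted p under 0.05 appeared in 2 alternatives each. Removing A94 and A115 together and the GC content correction were chosen after seeing the data. Depth limits the members near single fragments (Nr1i3, Nr5a2 and Rxrg in kidney, Hnf4g in liver).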
